A study of Mus musculus with 65 samples.

Results

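The genes of cholesterol synthesis and of its control by SREBP2 were followed in the hindbrain of a mouse model of spinocerebellar ataxia type 1 (SCA1). The 28 genes were taken from a list of names and matched by symbol to the count table. All 28 were found among its 49670 gene IDs, and all 28 passed the filter on low counts in every tissue and age. They comprise 21 enzymes from acetate to cholesterol, 5 genes of the SREBP transcription factors and their regulators, and 2 genes of sterol transfer and turnover. SCA1 is caused by an expanded polyglutamine tract in ataxin 1, and the knockin allele, labelled Atxn1[82Q], is a knockin, so the expanded tract lies in the mouse's own Atxn1 gene. Expression was read by RNA sequencing in 65 libraries of whole dissected tissue from C57BL/6J mice. In each tissue and age, wild type mice given vehicle, knockin mice given vehicle, and knockin mice given an antisense oligonucleotide (ASO) against Atxn1 were compared. Cerebellum was sampled at 18 weeks with 4 libraries a group, and medulla and pons at 18 weeks with 3 libraries a group. At 28 weeks pons had 4 libraries a group, and medulla had 8 wild type, 8 vehicle knockin and 7 ASO knockin libraries in a pair of labelled batches. No wild type group received the ASO, so an effect of the oligonucleotide on its own cannot be told apart from the lowering of Atxn1. The labels do not state that replicates are separate mice, so p-values measure the spread between libraries.

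Cholesterol is built from acetyl-CoA by way of HMG-CoA, mevalonate, isoprenoids, squalene and lanosterol. When sterols in the endoplasmic reticulum run low, the escort protein SCAP carries SREBP2 to the Golgi, where it is cut into an active transcription factor that raises most genes of the pathway. INSIG proteins hold SCAP back when sterols are plentiful. Brain cholesterol is made locally, since lipoproteins of the blood do not cross the blood-brain barrier, and most of it lies in myelin.

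Depth ran from 49.2 to 119.1 M counts a library (median 77.0 M). Atxn1 itself, which checks the labels, was above every wild type library in every vehicle knockin library of cerebellum at 18 weeks and of medulla and pons at 28 weeks. In cerebellum every ASO library (20.2 to 50.3 CPM, counts per M counts of the library) lay below every vehicle knockin library (57.9 to 65.0 CPM). The library ASO replicate 2 went against its label at 28 weeks. It held 49.3 CPM of Atxn1 in medulla and 52.4 in pons, against 24.8 to 33.5 and 26.7 to 36.8 in the other ASO libraries. At 18 weeks 2 libraries of each brainstem region went against their labels, and 1 more did in pons. In pons wild type replicate 1 had Atxn1 at 51.0 CPM, above every vehicle knockin library (44.7 to 49.3 CPM). Those labelled wild type replicate 3 had Atxn1 at 15.1 CPM (medulla) and 16.5 CPM (pons), whereas the rest of the wild type libraries had 32.7 to 34.8 and 33.2 to 51.0 CPM. Those labelled ASO replicate 2 had it at 38.4 and 50.9 CPM, against 13.3 to 20.8 and 16.6 to 24.2 CPM in the other ASO libraries, so directions at 18 weeks in brainstem rest on labels that Atxn1 does not bear out. In medulla at 28 weeks 4 libraries (wild type 5, vehicle knockin 8, ASO 6 and ASO 7) had low summed levels of Hox genes, which mark the caudal hindbrain. Numbers ending the column names were shared between medulla and pons at 28 weeks in 12 cases. At 18 weeks 6 numbers were shared by cerebellum, medulla and pons, and 3 by medulla and pons alone. Sharing was always within 1 treatment group, so the tissues may come from the same mice and are not independent. Wild type replicate 3 at 18 weeks and ASO replicate 2 at both ages each had the same number in medulla and pons.

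The stretches of genome just before the start of the genes are shown because SREBP2 acts there with its usual partners. SREBP binds sterol regulatory elements, searched here as TCACNCCAC and, more loosely, as its first 8 letters TCACNCCA. NF-Y binds CCAAT, and Sp1 binds the GC box GGGCGG. RefSeq promoters (GRCm38.p6) were on hand for 24 of the 28 genes, and 250 bases before each start were searched on both strands. The printed stretch ends at the RefSeq start, or where the annotated gene begins if that comes first. Capitals mark the strict element, CCAAT and GGGCGG, whose matches on the other strand read ATTGG for NF-Y and CCGCCC for Sp1. The stretches belong to the enzyme gene with the strict element, to the enzyme gene with the steepest fall, to the regulator that fell with the enzymes, and to an enzyme gene that did not pass the test. They lie at chr13:119690101-119690350 (plus strand) for Hmgcs1, chr8:122443423-122443672 (minus strand) for Mvd, chr5:28071162-28071362 (plus strand) for Insig1 and chr13:14063489-14063738 (minus strand) for Ggps1.
Hmgcs1: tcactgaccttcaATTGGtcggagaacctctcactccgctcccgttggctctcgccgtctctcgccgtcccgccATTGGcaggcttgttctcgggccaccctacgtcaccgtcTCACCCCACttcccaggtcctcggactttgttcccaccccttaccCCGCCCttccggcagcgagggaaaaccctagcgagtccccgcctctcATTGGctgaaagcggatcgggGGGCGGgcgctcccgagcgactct
Mvd: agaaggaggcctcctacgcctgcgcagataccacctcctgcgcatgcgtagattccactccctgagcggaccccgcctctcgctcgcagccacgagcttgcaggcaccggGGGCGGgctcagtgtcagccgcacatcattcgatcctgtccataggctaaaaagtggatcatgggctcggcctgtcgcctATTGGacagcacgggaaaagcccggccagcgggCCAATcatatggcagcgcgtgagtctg
Insig1: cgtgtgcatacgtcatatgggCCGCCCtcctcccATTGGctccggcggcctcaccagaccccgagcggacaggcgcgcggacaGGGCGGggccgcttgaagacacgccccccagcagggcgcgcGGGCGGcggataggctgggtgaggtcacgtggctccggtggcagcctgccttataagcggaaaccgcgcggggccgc
Ggps1: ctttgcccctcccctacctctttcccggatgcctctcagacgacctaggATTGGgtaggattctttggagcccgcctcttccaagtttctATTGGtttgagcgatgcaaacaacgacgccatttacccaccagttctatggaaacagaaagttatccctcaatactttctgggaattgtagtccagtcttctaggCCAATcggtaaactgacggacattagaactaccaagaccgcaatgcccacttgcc

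The strict element was found in 1 of 24 members, Hmgcs1, starting 137 bases before the start of transcription, and in 1.22% of 27025 genes with a promoter in the table. The looser form was found in 3 members (Hmgcs1, Msmo1 and Srebf2) and in 4.2% of all genes. CCAAT was found in 22 of the 24 members (91.7%), against 37.49% of all genes and 39.7% of the 13589 genes that were also tested in pons at 28 weeks. GGGCGG was likewise found in 22 of 24, against 35.36% of all genes and 58.1% of those tested. Both words occurred in the same promoter in 19 of 24 members (79.2%) and in 12.53% of all genes, or 21% of those tested. Ggps1 held 3 CCAAT words and no GGGCGG, and Acat2 held GGGCGG without CCAAT. Pmvk, which fell in knockin medulla at 28 weeks, also held CCAAT without GGGCGG. Lbr and Tm7sf2, which passed the test in neither brainstem region at 28 weeks, held both words. Whether the words go with the knockin difference was not tested. A match is a run of letters, not a measured site, and no binding was measured in these samples.

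Levels per exon length (RPKM, reads per kilobase of exon scaled by library size) placed the members over a wide range in wild type tissue. Hmgcs1, which makes HMG-CoA, was the highest in all 3 regions shown, at 89.2 ± 4.77 (SD, n = 8) in medulla and 84.4 ± 4.81 (SD, n = 4) in pons at 28 weeks and 31.3 ± 2.43 (SD, n = 4) in cerebellum at 18 weeks. Insig1 came next in each, at 60.3 ± 5.34, 58.3 ± 4.08 and 29.9 ± 1.90 RPKM in the same order. Squalene synthase, Fdft1, was the third in medulla and pons, at 38.3 ± 2.59 and 33.9 ± 2.07 RPKM, and stood at 10.8 ± 0.573 RPKM in cerebellum. Below these the order in medulla was close, and Cyp51 (31.5 ± 2.19), Sc5d (29.6 ± 1.04), Idi1 (27.4 ± 2.15) and Pmvk (27.2 ± 2.48 RPKM) were not separated from their neighbours by more than their spread. Fdps was the lowest member everywhere, at 1.05 ± 0.0946 RPKM in medulla. Mouse Fdps has near-identical pseudogene copies, and 26.7% of its exon bases lie in another gene model on the same strand, so its counts are uncertain. The cerebellum differs from the other groups in both region and age.

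**Figure D1:**
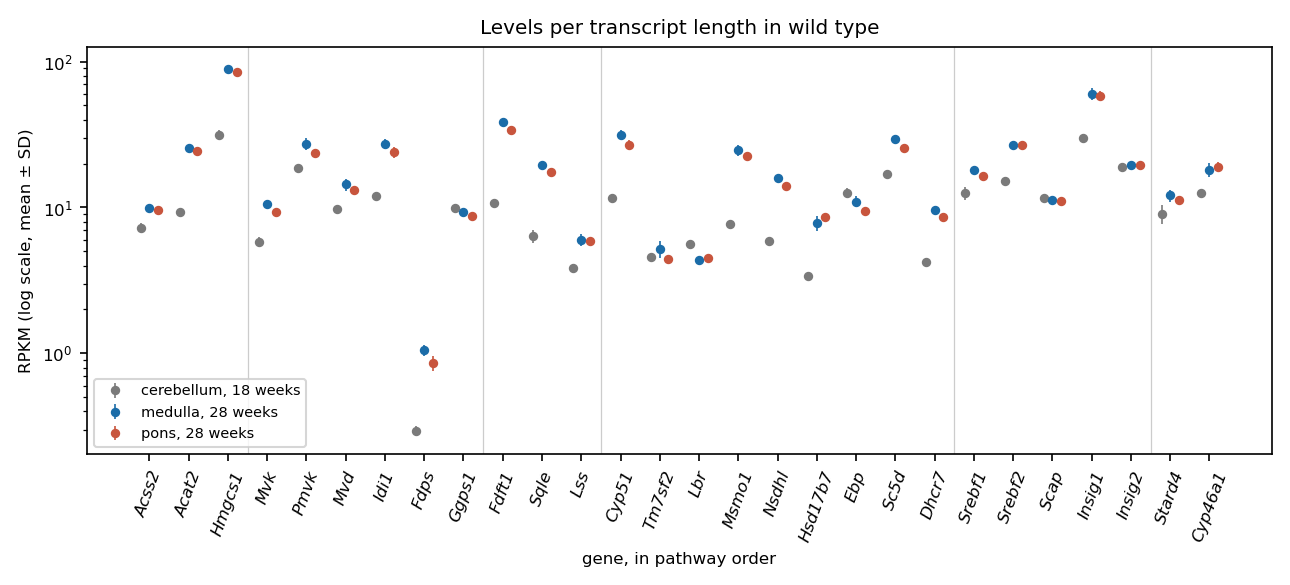
Level of each gene per exon length in wild type tissue (RPKM on a log axis, points are means and bars SD over 4, 8 and 4 libraries), in pathway order, for cerebellum at 18 weeks, medulla at 28 weeks and pons at 28 weeks. Hmgcs1 and Insig1 are highest and Fdps lowest in each region, and Ebp, Lbr, Ggps1 and Scap are the members with cerebellum means above both brainstem means.

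Does the pathway differ between knockin and wild type brainstem at 28 weeks? Synthesis genes were lower in vehicle knockin mice along nearly the whole path in both medulla and pons. In pons 17 of the 28 members fell (adjusted p under 0.05 by edgeR), where 5.65% of 20458 genes tested fell, and 1 rose, where 4.14% of genes rose. In medulla 18 members fell, where 9.99% of 20465 genes fell, and 1 rose, where 9.28% rose. The median log2 difference of the members was -0.33 in pons and -0.23 in medulla, against 0.01 over all genes tested in each. Of the 21 enzymes, 15 fell in pons and 16 in medulla, and none rose. In pons every vehicle knockin library lay below every wild type library for 19 of the 28 members, a pattern that 8.52% of genes showed. In medulla, with more libraries, this held for 7 members and 2% of genes.

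**Figure D2:**
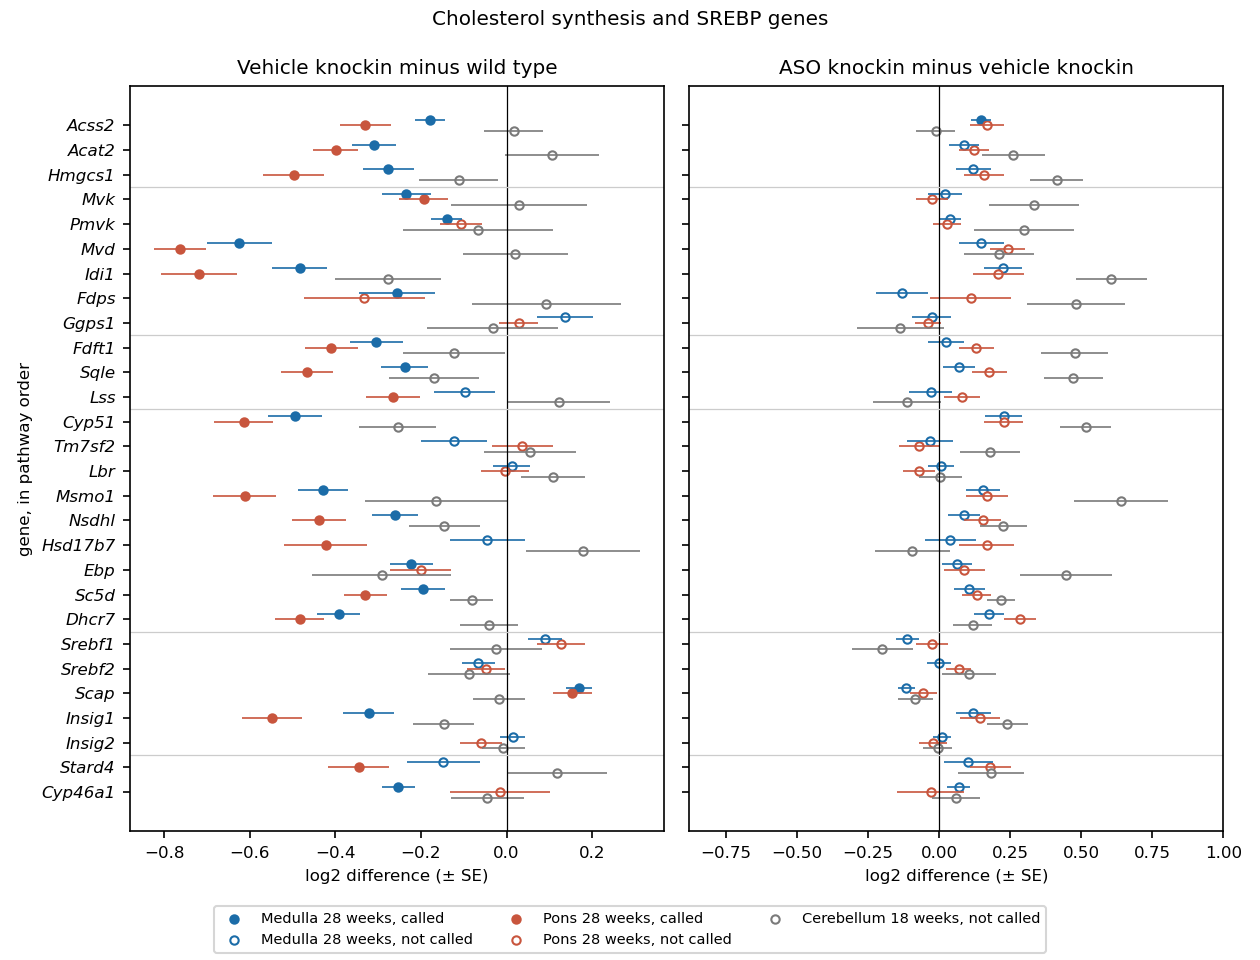
Log2 difference (± SE) of each gene in pathway order for vehicle knockin minus wild type (left) and ASO knockin minus vehicle knockin (right), in medulla and pons at 28 weeks and cerebellum at 18 weeks. Filled points passed an adjusted p of 0.05; on the left 18 medulla and 17 pons points are filled below 0, and on the right a single medulla point, Acss2, is filled.

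The first step takes acetate and acetyl-CoA to HMG-CoA, and all 3 of its genes fell in both regions. Acat2, the cytosolic thiolase that joins acetyl-CoA units, read 67.1, 62.6, 64.0 and 63.3 CPM in the wild type libraries of pons and 48.6, 45.4, 48.9 and 51.9 CPM in the vehicle knockin libraries. The groups did not overlap, and the log2 difference was -0.40 ± 0.052 (SE, adjusted p = 0.00077 by edgeR). In medulla Acat2 ran from 59.1 to 67.4 CPM in wild type (median 63.5) and from 46.5 to 57.8 CPM in knockin libraries (median 51.5), again apart, with a log2 difference of -0.31 ± 0.051 (SE, adjusted p = 0.00015). Hmgcs1 read 425, 407, 383 and 382 CPM in wild type pons against 272, 266, 275 and 318 CPM in the knockin, a log2 difference of -0.50 ± 0.071 (SE, adjusted p = 0.0013). Its medulla ranges touched, 370 to 446 CPM (median 398) in wild type and 293 to 373 CPM (median 332) in the knockin, with a log2 difference of -0.28 (adjusted p = 0.0023). An antisense gene model covers 12.1% of the exon bases of Hmgcs1. Acss2, which activates acetate, differed by -0.33 log2 in pons (adjusted p = 0.0046) and -0.18 in medulla (adjusted p = 0.001).

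The steps from mevalonate to isoprenoids held both the steepest falls and members that did not pass the test. Mvd, mevalonate diphosphate decarboxylase, showed the largest log2 difference of any member in each region. Its pons libraries read 25.9, 25.7, 24.4 and 25.5 CPM in wild type and 15.4, 14.3, 14.9 and 15.3 CPM in the knockin. All knockin values sat within about 1 CPM of each other and far under the wild type ones, a log2 difference of -0.76 ± 0.061 (SE, adjusted p = 2.1e-05). In medulla Mvd ran from 21.4 to 29.4 CPM in wild type (median 26.3) and from 14.4 to 19.0 CPM in knockin libraries (median 17.3), without overlap, a log2 difference of -0.62 ± 0.076 (SE, adjusted p = 4.6e-06). Idi1, the isomerase of isopentenyl diphosphate, differed by -0.72 in pons (adjusted p = 0.00079) and by -0.48 in medulla (adjusted p = 1.3e-05), with no overlap in either. Mevalonate kinase, Mvk, fell by 0.19 and 0.23 on the log2 scale (adjusted p = 0.045 and 0.0056), and the pons call was lost in 9 of 16 other settings. Phosphomevalonate kinase, Pmvk, fell in medulla by 0.14 (adjusted p = 0.0091) and stood at -0.11 in pons (adjusted p = 0.18). Ggps1, which makes geranylgeranyl diphosphate for protein prenylation rather than sterols, stood at 0.03 in pons and 0.14 in medulla and passed the test in neither (adjusted p = 0.75 and 0.16). The uncertain Fdps stood at -0.33 in pons (adjusted p = 0.15) and at -0.26 in medulla (adjusted p = 0.043), and the medulla call was lost in 17 of 31 other settings.

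Squalene formation and its closure to lanosterol involve 3 genes. Sqle, squalene epoxidase and a flux-controlling enzyme of the pathway, read 104, 103, 99.9 and 91.8 CPM in wild type pons and 69.998, 68.6, 72.9 and 77.0 CPM in knockin pons. The groups were apart, with a log2 difference of -0.47 ± 0.061 (SE, adjusted p = 0.00077). Its medulla ranges overlapped, 93.3 to 112 CPM (median 108) against 82.8 to 98.1 CPM (median 89.2), for a log2 difference of -0.24 (adjusted p = 0.0031). Fdft1 differed by -0.41 in pons and -0.30 in medulla (adjusted p = 0.0015 and 0.0011). Of its exon bases 18.3% overlap the protein-coding gene Ctsb on the other strand, and whether counting used strand is not known from the sources at hand. Lanosterol synthase, Lss, fell in pons by 0.27 on the log2 scale (adjusted p = 0.018) and stood at -0.10 in medulla (adjusted p = 0.38).

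Among the 9 genes that carry lanosterol to cholesterol, 6 fell in each region. Cyp51, the lanosterol 14-demethylase, read 131, 128, 114 and 116 CPM in wild type pons against 79.3, 76.1, 77.3 and 86.5 CPM in the knockin. No library of the groups overlapped, and the log2 difference was -0.61 ± 0.069 (SE, adjusted p = 4e-04). In medulla Cyp51 ran from 116 to 144 CPM in wild type (median 140) and from 87.1 to 106 CPM in the knockin (median 98.0), a log2 difference of -0.49 ± 0.063 (SE, adjusted p = 8.5e-06). Msmo1, the sterol C4-methyl oxidase, stood at -0.61 and -0.43 in pons and medulla (adjusted p = 0.00061 and 1.9e-05). Dhcr7, which completes one branch by reducing 7-dehydrocholesterol, stood at -0.48 and -0.39 (adjusted p = 0.00048 and 8.7e-06), and Nsdhl at -0.44 and -0.26 (adjusted p = 0.0014 in both). Sc5d, the desaturase before Dhcr7, fell by 0.33 and 0.19 on the log2 scale (adjusted p = 0.0017 and 0.0093). Hsd17b7 fell in pons (-0.42, adjusted p = 0.018) and stood at -0.05 in medulla (adjusted p = 0.78), while Ebp fell in medulla (-0.22, adjusted p = 0.0029) and stood at -0.20 in pons (adjusted p = 0.091). The paired sterol C14-reductases did not pass the test in either region. Tm7sf2 stood at 0.04 and -0.12 (adjusted p = 0.79 and 0.3), and Lbr, also a protein of the inner nuclear membrane, at -0.00 and 0.01 (adjusted p = 0.98 and 0.88). Another gene model, Vps51, shares 12.1% of the exon bases of Tm7sf2 on the same strand.

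Of the 5 transcription factors and regulators, 1 fell and 1 rose in each region. Srebf2, which encodes SREBP2, read 213, 187, 198 and 196 CPM in wild type pons and 192, 190, 199 and 187 CPM in the knockin. These values overlapped, and the log2 difference of -0.05 ± 0.044 (SE) did not pass the test (adjusted p = 0.54). In medulla the ranges were 182 to 202 CPM (median 189) and 155 to 193 CPM (median 186), with a log2 difference of -0.07 ± 0.039 (SE, adjusted p = 0.27). Srebf1, which encodes the SREBP1 forms, stood at 0.13 and 0.09 (adjusted p = 0.16 and 0.12). Insig1, itself a classical SREBP target as well as a brake on SCAP, fell with the enzymes. Its pons libraries read 193, 199, 176 and 174 CPM in wild type and 125, 121, 123 and 139 CPM in the knockin, a log2 difference of -0.55 ± 0.070 (SE, adjusted p = 0.00077). In medulla Insig1 ran from 156 to 203 CPM (median 184) and from 127 to 167 CPM (median 146), overlapping, with a log2 difference of -0.32 (adjusted p = 0.00049). Its relative Insig2, which is not an SREBP2 target in the same way, stood at -0.06 and 0.01 (adjusted p = 0.48 and 0.79). Scap was the member that rose, by 0.15 in pons and 0.17 in medulla (adjusted p = 0.048 and 0.00032). The pons call was lost in 11 of 16 other settings, and a gene model on the other strand covers 13.2% of the exon bases of Scap.

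Sterol handling was represented by a transfer protein and by the enzyme of cholesterol removal. Stard4, a sterol carrier controlled by SREBP2, read 66.6, 64.5, 66.4 and 59.5 CPM in wild type pons and 45.3, 48.8, 52.9 and 55.2 CPM in the knockin. The groups were apart, with a log2 difference of -0.35 ± 0.072 (SE, adjusted p = 0.01). In medulla its ranges overlapped widely, 55.0 to 74.5 CPM (median 66.5) and 40.9 to 72.8 CPM (median 60.6), and the difference of -0.15 did not pass (adjusted p = 0.24). Cyp46a1, the neuronal cholesterol 24-hydroxylase through which brain sheds cholesterol, showed the reverse order of regions. It fell in medulla by 0.25 on the log2 scale (adjusted p = 7.6e-05), without overlap between groups, and stood at -0.01 ± 0.116 (SE) in pons (adjusted p = 0.95).

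**Figure D3:**
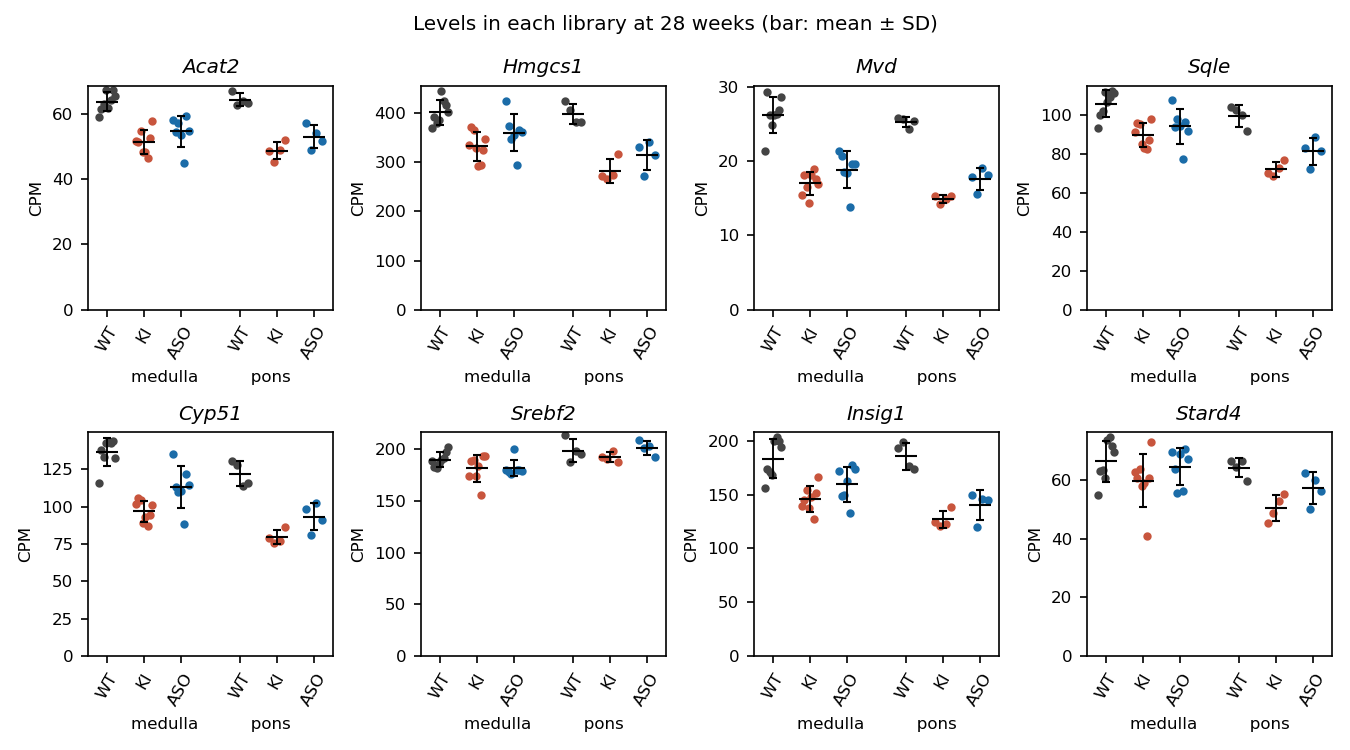
CPM of 8 members in every library of medulla and pons at 28 weeks, by group (WT, wild type; KI, vehicle knockin; ASO, ASO knockin); points are libraries and bars mean ± SD, with 8, 8 and 7 libraries in medulla and 4 in each pons group. Mvd and Cyp51 separate knockin from wild type in both regions, whereas the Srebf2 groups overlap throughout.

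Several checks bear on these counts. Within medulla batch 1 alone 14 members fell and none rose, in a fit that called 445 genes lower and 199 higher. Within batch 2 alone 13 members fell and 2 rose, Scap (0.18, adjusted p = 0.0038) and Ggps1 (0.26, adjusted p = 0.015, against 0.01 in batch 1), in a fit that called 2186 genes lower and 2147 higher. Mvd stood at -0.59 and -0.66 log2 in the batches (adjusted p = 0.0052 and 0.0011), and Cyp51 at -0.58 and -0.41 (adjusted p = 0.0032 and 0.006). Other members had values further apart. Hmgcs1 stood at -0.42 (adjusted p = 0.01) and -0.13 (adjusted p = 0.17), Sc5d at -0.33 (adjusted p = 0.021) and -0.06 (adjusted p = 0.42), Lss at -0.31 and 0.12, Hsd17b7 at -0.24 and 0.15, and Stard4 at -0.31 and 0.02, the last 3 called in neither batch. The differences between batches were not tested. Without the 4 libraries low in Hox genes 18 members fell and 1 rose, as with them. Fit by fit, 11 of the 19 medulla calls were kept in all 31 other settings (Acat2, Acss2, Cyp46a1, Cyp51, Dhcr7, Fdft1, Idi1, Insig1, Msmo1, Mvd and Nsdhl). In pons 14 of 18 calls were kept in all 16 settings (Acat2, Acss2, Cyp51, Dhcr7, Fdft1, Hmgcs1, Idi1, Insig1, Msmo1, Mvd, Nsdhl, Sc5d, Sqle and Stard4).

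The size of the knockin difference was then compared between tissues in a joint model. For pons minus medulla at 28 weeks, 21 of 28 members had the lower value in pons. No member passed the test (0.0184% of genes did), and DESeq2 called none either (0.0593% of genes). At an unadjusted p under 0.05, 6 members were lower and 1 higher, and the share of all genes at that p was not taken. The difference between pons and medulla was -0.24 ± 0.115 log2 (SE) for Idi1 and -0.14 ± 0.119 for Mvd, so a modest gap in either direction is not resolved. With the 24 libraries paired by the number in the column name, still no member passed. Against cerebellum at 18 weeks, 3 members passed in each brainstem region, where 2.93% of genes did for medulla and 1.23% for pons. These were Mvd (-0.64 for medulla and -0.78 for pons), Acat2 (-0.41 and -0.51) and Dhcr7 (-0.35 and -0.44 log2), with adjusted p from 0.004 to 0.042. Region and age cannot be told apart in this comparison.

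Other genes of lipid metabolism were read from fixed lists. Over all genes tested, 9.99% fell and 9.28% rose in medulla, and 5.65% fell and 4.14% rose in pons. A single call in one of the lists below is near these shares. Of 15 genes of fatty acid synthesis, which SREBP1 mainly drives, 10 fell in medulla (median log2 difference -0.33) and 12 in pons (median -0.41), and none rose. Mid1ip1, an activator of acetyl-CoA carboxylase, stood at -0.52 in medulla and -0.45 in pons (adjusted p = 4.3e-07 and 0.00079), and the desaturase Scd2 at -0.38 and -0.51 (adjusted p = 2.1e-05 and 0.001). Fads1, a desaturase of polyunsaturated fatty acids, fell by 0.53 in medulla on the log2 scale (adjusted p = 4.7e-06), and Acsl3, an acyl-CoA synthetase, by 0.41 in pons (adjusted p = 0.0019). Of 12 genes that draw isoprenoids off into dolichol, ubiquinone and prenylated proteins, none fell in either region, and Pggt1b, a subunit of a protein prenyltransferase, rose in medulla (0.27, adjusted p = 0.045). The members of smallest p in pons were Dhdds at -0.10 and Nus1 at -0.09 (adjusted p = 0.15 in both). Of 10 genes of SREBP cleavage and sterol-regulated degradation, 3 rose and 1 fell in medulla and none was called in pons. The site-2 protease Mbtps2 rose by 0.17 and Faf2 by 0.10 in medulla, while Tmem97 fell by 0.23 (adjusted p = 0.0013, 0.018 and 0.016). In pons the site-1 protease Mbtps1 stood at 0.13 (adjusted p = 0.055). Of 18 genes of sterol uptake, transfer, efflux and storage, the endosomal sterol transporter Stard3 was the single gene that fell, by 0.21 in medulla and 0.23 in pons (adjusted p = 0.023 and 0.034), and none rose.

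Markers of myelin and of astrocytes, and some of neurons, were lower in the same samples. Over all genes tested, 9.99% fell and 9.28% rose in medulla, and 5.65% fell and 4.14% rose in pons. A count of none or 1 in the shorter marker lists is near these shares. Of 15 markers of mature oligodendrocytes and myelin, 12 fell in medulla (median log2 difference -0.37) and 10 in pons (median -0.60). Their summed level ran from 11202 to 12045 CPM in wild type pons, from 6608 to 9560 CPM in vehicle knockin pons and from 8798 to 12588 CPM in ASO knockin pons. In medulla the sums ran from 11398 to 14549 CPM, from 7661 to 10917 CPM and from 8765 to 13156 CPM in the same order. Of 12 astrocyte markers, 10 fell in medulla and 8 in pons, and their summed level ran from 5480 to 7135 CPM in wild type and 3570 to 4523 CPM in vehicle knockin medulla and from 5107 to 5341 CPM and 3211 to 3707 CPM in pons. Of 10 neuronal markers 5 and 4 fell, of 8 microglial markers none was called, of 8 precursor markers 4 fell and 1 rose in medulla and 1 fell in pons, and of 7 endothelial markers none and 2 fell. No marker of the myelin or astrocyte lists was at 0. The part of glial RNA in the fall of the synthesis genes was not tested, and in whole tissue fewer cells of a type and less RNA per cell cannot be told apart.

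**Figure D4:**
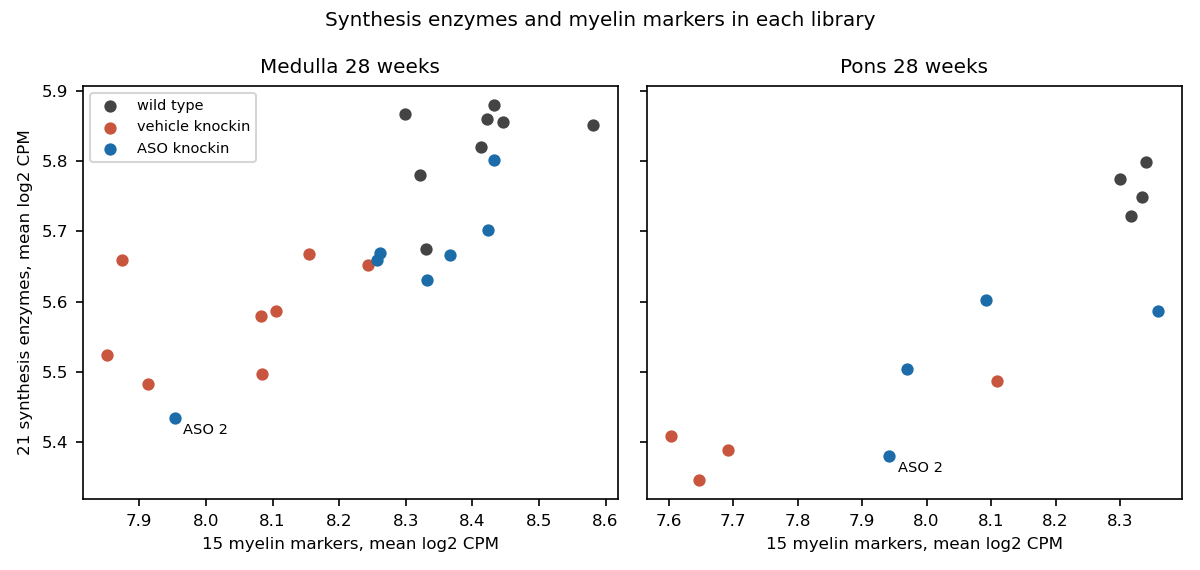
Mean log2 CPM of the 21 synthesis enzymes (vertical axis) against that of 15 myelin markers (horizontal axis) in every library of medulla (left, 23 libraries) and pons (right, 12 libraries) at 28 weeks, coloured by group. In pons the 4 wild type libraries stand above all others on the vertical axis, from 5.72 to 5.80, while on the horizontal axis ASO replicate 1, at 8.36, lies beyond all of them.

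What did the ASO change? Atxn1 fell in ASO against vehicle knockin medulla by 0.43 on the log2 scale (adjusted p = 0.027) and stood at -0.61 in pons (adjusted p = 0.17). The synthesis genes lay between knockin and wild type in most cases, with small steps. In medulla 1 of 28 members rose with the ASO, Acss2 by 0.15 (adjusted p = 0.039), where 1.3% of genes rose, and none fell, where 0.386% did. The call of Acss2 was lost in 14 of 31 other settings, 8 of which left out a single library. In pons no member passed, where 0.0831% of genes rose and 0.00978% fell. At an unadjusted p under 0.05, 5 members were higher in medulla (6.79% of genes were) and 13 in pons (7.54% of genes were), while Srebf1 and Scap were lower in medulla (5.3% of genes) and 0 members in pons (7.09%). DESeq2 called 4 members higher in medulla (Acss2, Idi1, Cyp51 and Dhcr7) among 447 genes that it called higher, and 3 in pons (Mvd, Cyp51 and Dhcr7) among 520. Of these pons calls Cyp51 lay at the threshold, whereas Mvd and Dhcr7 had adjusted p = 0.009 and 0.00077 by DESeq2. The median log2 difference of the members was 0.06 in medulla and 0.13 in pons, against -0.01 over all genes in each. This comparison and that of vehicle knockin with wild type share the vehicle knockin libraries, so opposite signs in them are not independent.

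By step, the ASO values of Mvd read 17.9, 15.6, 19.1 and 18.1 CPM in pons. All 4 were above every vehicle knockin library and below every wild type library, and the log2 difference from vehicle was 0.24 ± 0.061 (SE, adjusted p = 0.12). Dhcr7 was the other member with all ASO libraries above all vehicle libraries in pons, where 3.27% of genes were, at 0.29 ± 0.057 (SE, adjusted p = 0.074). Cyp51 read 98.3, 81.3, 103 and 91.3 CPM in ASO pons, with a log2 difference of 0.23 ± 0.069 (SE, adjusted p = 0.16), and Hmgcs1 read 331, 273, 341 and 316 CPM, at 0.16 ± 0.071 (SE, adjusted p = 0.33). In both genes ASO replicate 2 was the lowest of the 4 and sat within the vehicle range. Sqle read 83.3, 72.2, 88.9 and 81.4 CPM, Insig1 read 150, 120, 146 and 145 CPM, Acat2 read 57.2, 49.0, 54.0 and 51.7 CPM, and Stard4 read 62.5, 50.2, 59.9 and 56.3 CPM, each again lowest in replicate 2. Srebf2 read 209, 201, 203 and 192 CPM and overlapped both other groups. In medulla the ASO medians of Mvd, Cyp51, Hmgcs1, Sqle, Insig1 and Acat2 were 19.7, 113, 363, 94.3, 163 and 54.8 CPM, each above the vehicle knockin median and below the wild type median, and those of Stard4 and Srebf2 were 67.1 and 179 CPM.

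The library ASO replicate 2, whose Atxn1 stayed at the vehicle level, had the lowest mean level of the 21 enzymes of all 23 medulla libraries and the second lowest of the 12 pons libraries. Its summed myelin markers were also the lowest of the ASO libraries, at 8765 CPM in medulla against 11581 to 13156 CPM in the others, and at 8798 CPM in pons against 9096 to 12588 CPM. The part of myelin RNA in its enzyme level was not tested. Without it 4 members rose in medulla (Acss2 by 0.17, Idi1 by 0.27, Cyp51 by 0.27 and Dhcr7 by 0.21, adjusted p from 0.0061 to 0.0091) and Scap fell by 0.14 (adjusted p = 0.0078), where 435 genes in all rose and 176 fell. In pons Mvd rose by 0.31, Cyp51 by 0.30, Msmo1 by 0.26 and Dhcr7 by 0.34 (adjusted p from 0.0051 to 0.035), where 278 genes in all rose. Within batch 2 of medulla alone, or without the 4 libraries low in Hox genes, no member rose. Within batch 1 alone no gene of any kind was called with the ASO, so that fit says nothing about the members in particular. In batch 1 and batch 2 Acss2 stood at 0.12 and 0.18 log2 and Idi1 at 0.23 in both. Cyp51 stood at 0.21 and 0.26, and Dhcr7 at 0.15 and 0.21.

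ASO knockin and wild type mice still differed. In medulla 10 members were lower in ASO knockin than in wild type libraries, where 2.02% of genes were, and in pons 10 were, where 0.591% were. None was higher in either, where 1.77% and 0.474% of genes were. The 10 in medulla were Acat2, Mvk, Mvd, Idi1, Fdps, Fdft1, Cyp51, Msmo1, Dhcr7 and Cyp46a1, and those in pons Acat2, Hmgcs1, Mvd, Idi1, Fdft1, Sqle, Cyp51, Msmo1, Nsdhl and Insig1. Mvd remained lowest against wild type, at -0.48 ± 0.079 log2 in medulla and -0.52 ± 0.060 in pons (SE, adjusted p = 0.0025 and 0.0013). Its mean stood at 64.9% of the wild type mean in vehicle knockin medulla and 71.9% in ASO knockin medulla, and Idi1 stood at 71.6% and 83.5%. In pons Idi1 stood at 60.7% and 70.2%, and Msmo1 at 65.4% and 73.5%. The counts moved with single libraries and batches. In pons 1 member was lower without any of wild type replicates 1, 2 or 4 and 12 without vehicle knockin replicate 4, and within medulla batch 1 and batch 2 alone 1 and 0 members were lower.

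**Figure D5:**
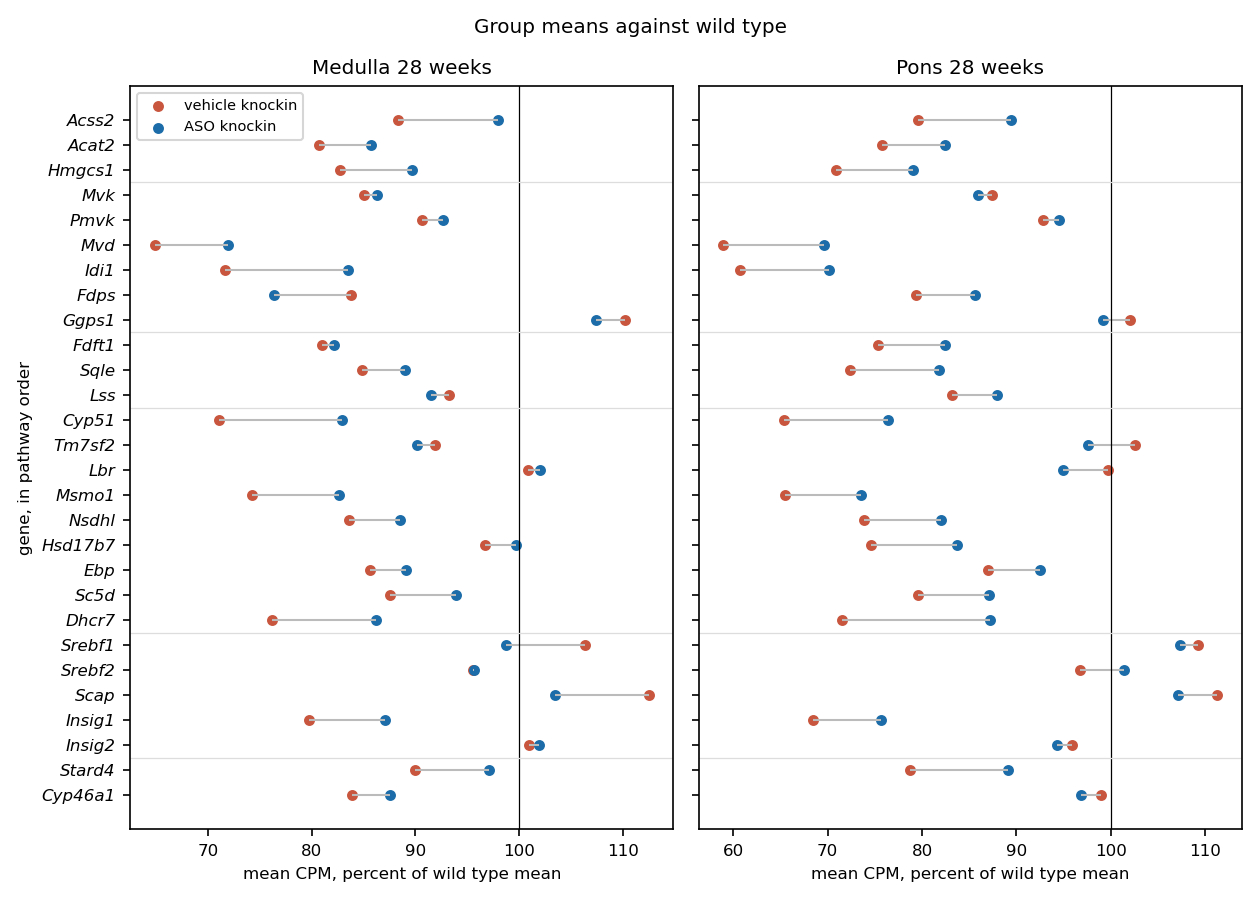
Mean CPM of each member in vehicle knockin and ASO knockin libraries as a percentage of the wild type mean, in pathway order, for medulla (left) and pons (right) at 28 weeks; the grey line joins the groups. For Mvd the medulla means stand at 64.9% and 71.9% of wild type, and Scap and Srebf1 stand above 100% in vehicle knockin tissue of both regions.

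Lists beside the pathway gave other counts for the ASO in medulla. Of the 15 myelin markers 8 rose with the ASO and 1 was lower than wild type, and of the 12 astrocyte markers 8 rose and 2 were lower than wild type. Of the 15 genes of fatty acid synthesis 6 rose (among them Fads1 by 0.35, Acsl3 by 0.28 and Mid1ip1 by 0.24, with adjusted p of 0.0063, 0.015 and 0.019) and 1 was lower than wild type. The corresponding counts for the 28 members were 1 and 10. Over all genes tested in medulla, 1.3% rose with the ASO and 2.02% were lower than wild type. Whether the lists differ was not tested. In pons none of the myelin, astrocyte or fatty acid genes was called with the ASO, and their median log2 differences were 0.36, 0.38 and 0.17. Few genes of any kind were called there, 0.0831% higher and 0.00978% lower.

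Cerebellum was sampled at 18 weeks. No member was called between vehicle knockin and wild type cerebellum, where 2.06% of 20350 genes fell and 0.654% rose, and DESeq2 called none either. At an unadjusted p under 0.05, 2 members were lower (7.61% of genes were), Cyp51 (-0.25, adjusted p = 0.19) and Idi1 (-0.28, adjusted p = 0.33), and 0 were higher (6.69% of genes were). The median over the members was -0.04. Without ASO replicate 3, which enters through the shared estimate of spread, Idi1, Cyp51 and Ebp fell by 0.28, 0.25 and 0.29 on the log2 scale (adjusted p = 0.0036, 0.012 and 0.013), in a fit that called 1629 genes lower in all. Fitting just the 2 groups called the same 3 members and 1703 genes lower. The 3 of 28 members are thus close to the share of all genes in these fits. Mvd read 19.1, 17.9, 16.8 and 19.98 CPM in wild type and 17.2, 20.1, 19.7 and 17.8 CPM in vehicle knockin cerebellum, with full overlap.

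ASO against vehicle in cerebellum gave values above 0 for 21 of the 28 members, and none passed the test in edgeR, where 0.0491% of genes rose and 0% fell. At an unadjusted p under 0.05, 12 members were higher (5.71% of genes were) and 0 lower (1.93% of genes were), 10 had every ASO library above every vehicle library (2.73% of genes did), and the median was 0.21 against 0.02 over all genes. Cyp51 read 40.1, 42.7, 43.2 and 49.6 CPM in vehicle knockin and 59.4, 59.4, 73.5 and 58.8 CPM in ASO knockin libraries, against 56.4, 51.2, 49.8 and 52.0 CPM in wild type. The ASO libraries were above both other groups, and the log2 difference from vehicle was 0.52 ± 0.090 (SE, adjusted p = 0.081). Sqle read 29.9, 29.8, 30.4 and 37.8 CPM and 43.6, 41.4, 50.4 and 42.2 CPM, at 0.47 ± 0.105 (SE, adjusted p = 0.16), and Hmgcs1 read 123, 129, 133 and 157 CPM and 169, 173, 205 and 176 CPM, at 0.41 ± 0.092 (SE, adjusted p = 0.16). Msmo1 stood at 0.64 and Idi1 at 0.61 (adjusted p = 0.25 and 0.13). DESeq2 called 7 members higher among 203 genes. Without ASO replicate 3, 5 rose in edgeR, among 118 genes in all, namely Idi1 (0.44), Cyp51 (0.43), Fdft1 (0.33), Insig1 (0.29) and Sc5d (0.23), with adjusted p from 0.0044 to 0.041. Against wild type cerebellum, ASO knockin libraries gave no called member in edgeR or DESeq2, with 11 higher and 0 lower at an unadjusted p under 0.05, where 6.32% of genes were higher and 4.66% lower. ASO replicate 3 had the lowest Atxn1 of its group (20.2 CPM) and the deepest sequencing. Its enzyme and myelin marker means were above every other cerebellar library. ASO replicate 4, with the highest Atxn1 of the ASO group (50.3 CPM), came next in both means. Replicate 3 stood far from its group for 6 members. It was above the other ASO libraries for Mvk, Pmvk, Cyp51 and Msmo1. It was below them for Ggps1 (26.7 CPM, others 46.7 to 48.4) and Lss (30.5 CPM, others 46.1 to 47.4).

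In medulla and pons at 18 weeks no gene passed edgeR's test in any contrast, so 0 of 28 members did (0% of genes), and DESeq2 called 0 members. At an unadjusted p under 0.05 between vehicle knockin and wild type, 4 members were lower in medulla and 5 in pons, where 3.49% and 5.42% of genes were, and 0 were higher in either, where 2.25% and 6.77% of genes were. With the ASO against vehicle 1 member was higher in each region by that measure (3.56% and 3.83% of genes) and 0 lower (1.08% and 2.46%). Against wild type 0 members of the ASO groups were higher (1.4% and 1.1% of genes) or lower (1.98% and 1.43%). Mvd read 15.3, 18.1 and 19.8 CPM in wild type pons and 12.8, 8.29 and 12.4 CPM in vehicle knockin pons, apart, at -0.67 ± 0.176 log2 (SE, adjusted p = 0.41), and in medulla 17.2, 17.5 and 21.3 CPM against 15.5, 14.5 and 16.01 CPM. Cyp51 in pons read 81.2, 112 and 121 CPM and 92.3, 121 and 105 CPM, with full overlap. Vehicle knockin replicate 2 of pons, the library with 8.29 CPM of Mvd, had the fewest counts of all libraries (49.2 M). It read 95.4 CPM of Srebf2 (others 148 and 141) and 86.0 CPM of Idi1 (others 57.6 and 66.6). Groups of 3 libraries were not tested for an outlying library, and its values enter the pons comparison of ages that follows. The change of the knockin difference from 18 to 28 weeks passed for no member in edgeR. Over all genes 0.0046% did in medulla and 0% in pons. DESeq2 called 1 member in medulla and 7 in pons, where 0.441% and 4.54% of genes were called. At an unadjusted p under 0.05 in edgeR, 6 members were lower and 1 higher in medulla and 11 and 3 in pons. The share of all genes at that p was not taken. In pons Idi1 gave -0.82 ± 0.218 and Cyp51 -0.62 ± 0.182 log2 (SE, adjusted p = 0.08 and 0.082).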

How the data were processed

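Stranded RNA libraries were made from dissected tissue, per the labels' protocols, and the authors deposited 1 table of whole-number read counts per gene ID for all 65 libraries. The submitters' processing notes name CASAVA 1.8, HISAT2 2.0.2, the GRCm38 build, featureCounts of Subread, R 3.3.3 and DESeq2 1.14.1. The strand and pair settings of the counting are not known from the sources at hand. From 70.01 to 78.6% of counts between 1 and 20 were even, so mates may have been counted separately, and counting error would then be larger than the counts imply. Symbols were found for 49325 of 49670 IDs.

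The members and all lists were chosen with earlier results of these data known. In R 4.3.3, edgeR 4.0.16 fitted each tissue and age with all 3 groups (TMM, filterByExpr with a minimum count of 10, robust quasi-likelihood test, and a batch term in medulla at 28 weeks), since the groups then share 1 estimate of spread. Calls used an adjusted p (Benjamini-Hochberg over all genes) under 0.05, and standard errors came from the fold change and the F statistic. Differences between tissues were interaction terms of a joint fit. CPM used TMM factors, log2 means of lists added 0.5, and RPKM used the exon length of GENCODE vM21 gene models. The script was tested on simulated data. All 28 members could be named; values in every library are given for the member of smallest p in pons within each role and for Hmgcs1, Sqle, Insig1 and Srebf2, and from related lists for up to 3 called genes of smallest p, or 2 where none was called. DESeq2 1.42.0, no filter, fits of 2 groups, a replicate block, single batches and left-out libraries were alternatives. The looser sterol element and the pairing of the 24 libraries were added after the data were seen. A gene of the related lists that the naming rule would give is not reported here.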

Additional observations from a re-analysis of the deposited data

Results flagged for a closer look

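A single library stood far from the rest of its group in 8 of the 72 groups of 4 to 8 libraries tested for the 8 members whose library values are given, and in 25 of 252 over all 28 members, where chance gives about 1 in 20. ASO replicate 2 of medulla at 28 weeks read 45.0 CPM of Acat2 (others 53.5 to 59.4) and 13.9 CPM of Mvd (others 18.4 to 21.5), and ASO replicate 2 of pons read 120 CPM of Insig1 (others 145 to 150). ASO replicate 1 of medulla at 28 weeks read 200 CPM of Srebf2 (others 176 to 180). Wild type replicate 5, low in Hox genes, read 116 CPM of Cyp51 (others 133 to 144), and vehicle knockin replicate 2 of medulla read 40.9 CPM of Stard4 (others 58.0 to 72.8). In cerebellum vehicle knockin replicate 4 read 37.8 CPM of Sqle (others 29.8 to 30.4), and ASO replicate 3 read 73.5 CPM of Cyp51 (others 58.8 to 59.4).

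The knockin difference of 3 members itself differed from that in cerebellum at 18 weeks by the interaction test. The log2 values for medulla at 28 weeks were -0.41 for Acat2, -0.64 for Mvd and -0.35 for Dhcr7, and those for pons at 28 weeks were -0.51, -0.78 and -0.44. Region and age cannot be told apart here.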

How the results depend on the processing

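Among single member values under the alternatives, 7390 kept their side of the threshold, 195 lost the call and 59 gained it. The sign changed in 320 values, none of them called in either fit. Leaving out each library in turn, the members lower in vehicle knockin than wild type numbered 17 to 18 in medulla and 14 to 19 in pons at 28 weeks and 0 to 3 in cerebellum, and those higher 1 to 2 in medulla and 0 to 1 in pons. Members lower in ASO knockin than wild type numbered 6 to 13 in medulla and 1 to 12 in pons. Members higher with the ASO numbered 0 to 5 in cerebellum (5 without ASO replicate 3), 0 to 4 in medulla and 0 to 4 in pons (4 without ASO replicate 2 in each), and those lower in medulla 0 to 1. All other ranges were 0.

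With a fit of the 2 groups alone, 3 members fell in knockin cerebellum. DESeq2 called 7 members higher with the ASO in cerebellum, 4 higher and 1 lower in medulla and 3 higher in pons. It called 7 members in the interaction of pons with cerebellum, where 1.66% of genes were called. It called 1 in that of medulla with its 18-week set (0.441% of genes) and 7 in that of pons with its own (4.54%). In medulla 0 members rose with the ASO with no filter, with 2 groups alone and with no batch term. The same held without the 4 libraries low in Hox genes and in batch 1 or batch 2 alone. In batch 1 alone no gene at all was called in that contrast. Members higher in knockin medulla numbered 0 in batch 1 and 2 in batch 2. Members lower in ASO medulla than wild type numbered 1 in batch 1, 0 in batch 2 and 5 without the libraries low in Hox genes. With no filter 0 members rose in knockin pons and 1 rose with the ASO in pons. The cause of these changes was not tested.

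Replicate numbers shared between groups did not pair the libraries: same-numbered libraries correlated at a median of -0.18 to -0.01 in the 5 sets. With the replicate number as a block, 5 members were lower in ASO medulla than wild type, 3 in ASO pons, and 0 rose in knockin pons; the other counts stayed within 1.5 times.

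Counts over all genes moved too. For vehicle knockin against wild type cerebellum, 419 genes lower and 133 higher became 1703 and 1458 with 2 groups alone, 1629 and 1285 without ASO replicate 3, 782 and 387 in DESeq2 and 252 and 51 with the replicate block. In medulla 2045 and 1899 became 445 and 199 in batch 1 alone, and in pons 1155 and 847 became 2365 and 1894 without vehicle knockin replicate 4 and 564 and 267 without replicate 2. With the ASO against vehicle, 79 lower and 267 higher in medulla became 163 and 447 in DESeq2, 0 and 0 in batch 1 alone and 176 and 435 without ASO replicate 2, and 2 and 17 in pons became 94 and 520 in DESeq2 and 21 and 278 without ASO replicate 2. Against wild type, 414 and 363 in ASO medulla became 719 and 647 in DESeq2, and 121 and 97 in ASO pons became 565 and 455. The standard error of the knockin difference of Mvd in pons was 0.176 on the log2 scale with 3 libraries a group at 18 weeks and 0.061 with 4 at 28 weeks.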
